A study of Saccharomyces cerevisiae with 4 samples.

Results

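Baker's yeast keeps several mitochondrial and translation proteins as paralogues, of which one gene is used in well-aerated cells and its partner when oxygen is short. This account covers 9 such genes in 4 sets, found by matching the array's annotation to the gene symbols. The sets are COX5A and COX5B, CYC1 and CYC7, PET9, AAC1 and AAC3, and HYP2 and ANB1. All 9 were present among 5449 annotated S. cerevisiae genes, each with 1 probe set, and all 9 were bright enough to be tested among 5316 genes.

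Messenger RNA was measured on 4 one-colour Affymetrix Yeast Genome 2.0 arrays, 2 of the strain X2180 and 2 of the strain NBRC1950, each from an independent experiment. X2180 is a diploid laboratory strain of the S288C lineage, from which the reference genome comes, and NBRC1950 is a culture-collection strain. No engineered allele, treatment or vanillin exposure is named for either group, and cells of both came from shaken cultures in YPD, which is rich in glucose. Oxygen in the cultures, cell density and growth phase at harvest are not given in the sources used here.

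In the presence of oxygen yeast makes heme, and heme activates the transcription factor Hap1, which switches on genes of respiration together with the Hap2-Hap3-Hap4-Hap5 complex. Hap1 also drives ROX1, whose product represses hypoxic genes with the help of the Tup1-Cyc8 co-repressor. When oxygen falls, heme runs out, Rox1 is lost and the hypoxic genes are released. The ratio of a hypoxic to an aerobic paralogue is therefore a classical readout of this switch, although each gene also has controls of its own. The HAP1 gene of the S288C lineage is known to carry a retrotransposon insertion near the end of its reading frame, which limits X2180 as a model of Hap1 control.

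The arrays were scaled to a common median signal over the S. cerevisiae probe sets, and signals are given on that scale. Differences are log2 values of NBRC1950 minus X2180 from limma with Benjamini-Hochberg adjustment over all tested probe sets, and a gene was called at an adjusted p under 0.05. Before scaling, the median S. cerevisiae signal was 894 to 1171 on the 4 arrays. Of the members, 8 of 9 were called, 3 higher and 5 lower in NBRC1950, while 47.2% of all tested genes were called, 20.4% higher and 26.8% lower. The arrays of the strains did not overlap for 9 of 9 members, and 75.7% of all tested genes met that condition. With this many genes called, a call alone sets no member apart, and the sizes and the ratios inside each set carry the description. The cultures were measured in bulk, so less RNA per cell and fewer cells expressing a gene cannot be told apart. Probes were designed on the reference sequence, and mismatches in NBRC1950 were not masked.

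**Figure D1:**
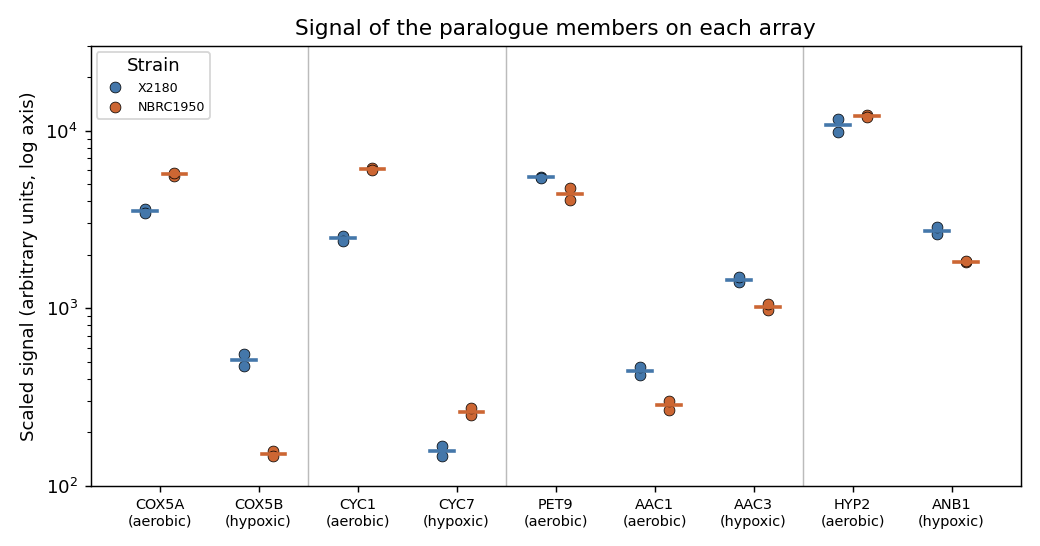
Scaled signal (arbitrary units, log axis) of the 9 members on each array; points are single arrays and bars are means of 2 arrays. The strains lie apart for every member, with HYP2 the closest; heights of different genes are not comparable because probe sets respond differently.

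COX5A and COX5B moved in opposite directions. They encode the alternative forms of subunit V of cytochrome c oxidase, the enzyme that passes electrons to oxygen, and COX5A is the form of aerated cells. COX5A (YNL052W, chromosome XIV) had signals of 3612 and 3438 in X2180 and of 5550.4 and 5809 in NBRC1950. Its means were 3525 ± 123 and 5679.9 ± 183 (SD, n = 2 arrays in each strain). COX5A was thus higher in NBRC1950 on every array, by 0.69 ± 0.07 on the log2 scale (SE; limma adjusted p = 0.000165).

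COX5B (YIL111W, chromosome IX), the hypoxic form, had signals of 474 and 554 in X2180 and of 156 and 147 in NBRC1950. The means were 514 ± 56.6 and 152 ± 6.48 (SD, n = 2 arrays in each strain). Both NBRC1950 arrays lay well below both X2180 arrays, and yet far above the background limit of 14.9 and 16.6 on those arrays. The difference was -1.76 ± 0.12 (SE; limma adjusted p = 3.2e-05), or 3.38-fold, the largest of the 9 members. Of all tested genes, 2.92% changed by at least as much.

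CYC1 and CYC7 both rose, the aerobic form by more. They encode iso-1 and iso-2 cytochrome c, the soluble carrier that brings electrons from complex III to the oxidase. CYC1 (YJR048W, chromosome X) supplies most cytochrome c in aerated cells. Its signals were 2562 and 2390.0 in X2180 and 6194 and 6013 in NBRC1950, with means of 2476 ± 122 and 6103 ± 128 (SD, n = 2 arrays in each strain). The strains were far apart, and the difference of 1.30 ± 0.07 (SE; limma adjusted p = 8.6e-06), or 2.47-fold, was the most positive among the members. Of all tested genes, 4.91% changed by at least as much.

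CYC7 (YEL039C, chromosome V), the minor form that is relatively favoured at low oxygen, had signals of 168 and 147 in X2180 and of 249 and 273 in NBRC1950. The means were 157 ± 14.5 and 261 ± 16.7 (SD, n = 2 arrays in each strain). CYC7 was higher in NBRC1950 by 0.73 ± 0.13 (SE; limma adjusted p = 0.00298). It was the only hypoxic form called higher among 4, the other 3 being called lower.

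The 3 ADP/ATP carriers were all lower in NBRC1950 with the main scaling. None of the 3 was called lower with no further scaling or with scaling to the median of all probe sets. These proteins of the inner mitochondrial membrane exchange ATP made in the mitochondrion for cytosolic ADP. PET9 (YBL030C, chromosome II), also called AAC2 and the main carrier of respiring cells, had signals of 5505 and 5432 in X2180 and of 4069.5 and 4765 in NBRC1950. The arrays did not overlap, but the NBRC1950 arrays differed from each other by 0.23 on the log2 scale, against a strain difference of -0.31 ± 0.09 (SE; limma adjusted p = 0.0193). The call of PET9 was lost when X2180 replicate 1 (-0.30), X2180 replicate 2 (-0.32) or NBRC1950 replicate 1 (-0.20) was left out. It was also lost with quantile normalization (limma adjusted p = 0.0817) and with no further scaling (0.772). With scaling to the median of all probe sets PET9 was called higher instead (0.23, limma adjusted p = 0.0465).

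AAC1 (YMR056C, chromosome XIII), a minor carrier of aerobic cells, had signals of 419.6 and 468 in X2180 and of 269 and 302 in NBRC1950. The strains did not overlap, and the difference was -0.64 ± 0.11 (SE; limma adjusted p = 0.00283). AAC3 (YBR085W, chromosome II), the carrier made without oxygen, had signals of 1406 and 1493 in X2180 and of 978 and 1055 in NBRC1950. It was lower on both NBRC1950 arrays, by -0.51 ± 0.08 (SE; limma adjusted p = 0.00142). The hypoxic carrier gene thus had a difference between those of the aerobic carriers PET9 and AAC1.

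HYP2 and ANB1 encode the aerobic and the hypoxic form of eIF5A, the translation factor that carries the amino acid hypusine. HYP2 (YEL034W, chromosome V) had signals of 9801 and 11662 in X2180 and of 12213 and 12008.5 in NBRC1950. The gap between its X2180 arrays was 0.25 on the log2 scale, more than that between the strains (0.18 ± 0.09, SE; limma adjusted p = 0.147), and HYP2 was the only member not called. It passed at 0.31 without X2180 replicate 2 (limma adjusted p = 0.0065) and at 0.29 with quantile normalization (0.00478).

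ANB1 (YJR047C, chromosome X) had signals of 2607 and 2851 in X2180 and of 1816 and 1838 in NBRC1950. The means were 2729 ± 172 and 1827 ± 15.9 (SD, n = 2 arrays in each strain). ANB1 was lower on both NBRC1950 arrays, by -0.58 ± 0.07 (SE; limma adjusted p = 0.000538). Its call was lost with no further scaling (limma adjusted p = 0.183) and with scaling to the median of all probe sets (0.796). The reading frames of HYP2 and ANB1 are closely similar, and whether transcripts of one bound probes of the other was not tested.

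Members from different sets lie side by side in the genome. In the gene order of the R64 reference, ANB1 and CYC1 are direct neighbours on chromosome X with 0 genes between them, and they differed in opposite directions. CYC7 and HYP2 lie near each other on chromosome V with 4 protein-coding genes between them, of which 3 were tested. Those 3 differed by -0.83 to 0.49, and all 3 were called, as were 47.2% of all tested genes.

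The sign of some members depended on how the arrays were scaled. Scaling to the median of all probe sets, which includes the background, moved the median of all genes from -0.05 to 0.50. PET9 was then called higher (0.23, limma adjusted p = 0.0465), the reverse of its main call, and HYP2 was called higher too (0.73). AAC3 (0.03), AAC1 (-0.09) and ANB1 (-0.03) were near 0 and not called. COX5A, CYC1 and CYC7 stayed higher and COX5B stayed lower in each of the 4 scalings. Relative to the median gene, PET9 was at -0.27, AAC1 at -0.59, AAC3 at -0.47, HYP2 at 0.23 and ANB1 at -0.53 with the main scaling, that to all probe sets and none. Those scalings differ only by a constant factor per array, so that their agreement was fixed in advance. With quantile normalization, which could differ, the values of these 5 members ranged from -0.63 (AAC1) to 0.26 (HYP2). Called genes were 43.2% higher with the main scaling and 92.5% with all probe sets, so the directions of the carriers and of ANB1 are directions against the median gene.

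**Figure D2:**
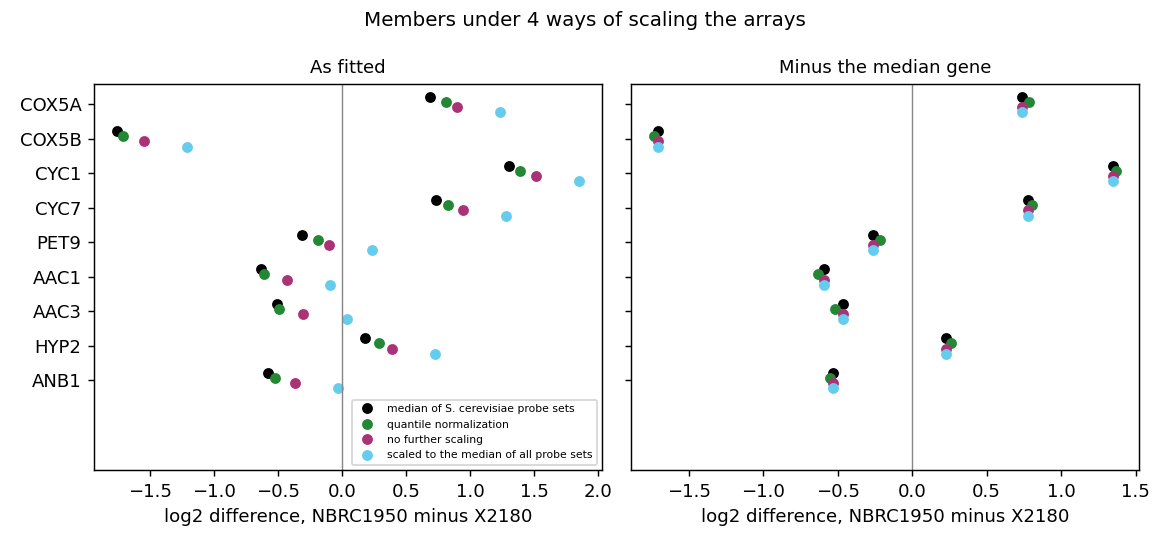
Log2 difference (NBRC1950 minus X2180) of each member under 4 ways of scaling the arrays, as fitted (left) and after subtracting the median of all tested genes (right). As fitted, PET9 and AAC3 cross 0 under 1 of the scalings. Relative to the median gene every member keeps its side, but only quantile normalization could have changed it, since the other scalings differ by a constant factor per array.

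The ratio of 2 members on the same array does not depend on a constant scaling factor of that array, though it can move with quantile normalization, and it was followed for 6 pairs inside the sets. Probe sets differ in response, so the ratio is not a ratio of transcripts, and only its change between strains is read. A mismatch of NBRC1950 to either probe set could move that change too, and this was not tested. Intervals of 95% were built from the limma errors of both genes, added as if independent. Both genes were read on the same arrays, and errors that they share were not modelled. The exact permutation test over the 4 arrays gave a two-sided p of 0.333 for each pair, the smallest that 2 against 2 arrays allow.

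The COX5B/COX5A ratio changed most. Its log2 value was -2.93 and -2.63 in X2180 and -5.15 and -5.30 in NBRC1950. The ratio was lower on both NBRC1950 arrays, by -2.44 (95% interval -2.76 to -2.12), or 5.44-fold (4.35 to 6.79). Over the 4 possible pairs of an NBRC1950 and an X2180 array, the difference ran from -2.67 to -2.22.

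The ANB1/HYP2 ratio fell next most. Its log2 value was -1.91 and -2.03 in X2180 and -2.75 and -2.71 in NBRC1950. The difference was -0.76 (95% interval -1.03 to -0.49), or 1.69-fold, and ran from -0.84 to -0.68 over the pairs of arrays. The arrays of each strain were close together, within 0.12 for X2180 and 0.04 for NBRC1950.

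The CYC7/CYC1 ratio was lower in NBRC1950 although both genes were higher there. Its log2 value was -3.93 and -4.02 in X2180 and -4.64 and -4.46 in NBRC1950. The difference was -0.57 (95% interval -0.91 to -0.23), or 1.49-fold. With no further scaling the difference was the same, but the interval of -1.18 to 0.04 held 0.

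Inside the carrier set the changes of the ratios were smaller, and whether their intervals left out 0 depended on the processing. AAC3/PET9 had log2 values of -1.97 and -1.86 in X2180 and -2.06 and -2.18 in NBRC1950, a difference of -0.20 whose 95% interval of -0.47 to 0.07 holds 0. AAC1/PET9 differed by -0.32 (-0.65 to 0.0035) and AAC3/AAC1 by 0.13 (-0.19 to 0.44). With quantile normalization the intervals left out 0 for AAC3/PET9 (-0.56 to -0.05) and AAC1/PET9 (-0.73 to -0.11). The main intervals allow a fall of AAC3 against PET9 by up to 0.47 on the log2 scale, and they do not reach the point values of COX5B/COX5A or ANB1/HYP2. That of AAC1/PET9, however, overlaps the interval of ANB1/HYP2 (-1.03 to -0.49) and holds the point value of CYC7/CYC1 (-0.57). Of the 5 ratios of a hypoxic over an aerobic form, 4 were lower on both NBRC1950 arrays, and for 3 the interval left out 0 with the main scaling. The share of other gene pairs that meet these conditions was not measured, while the arrays did not overlap for 75.7% of single genes. The carrier ratios also share genes, so the 5 are not independent.

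**Figure D3:**
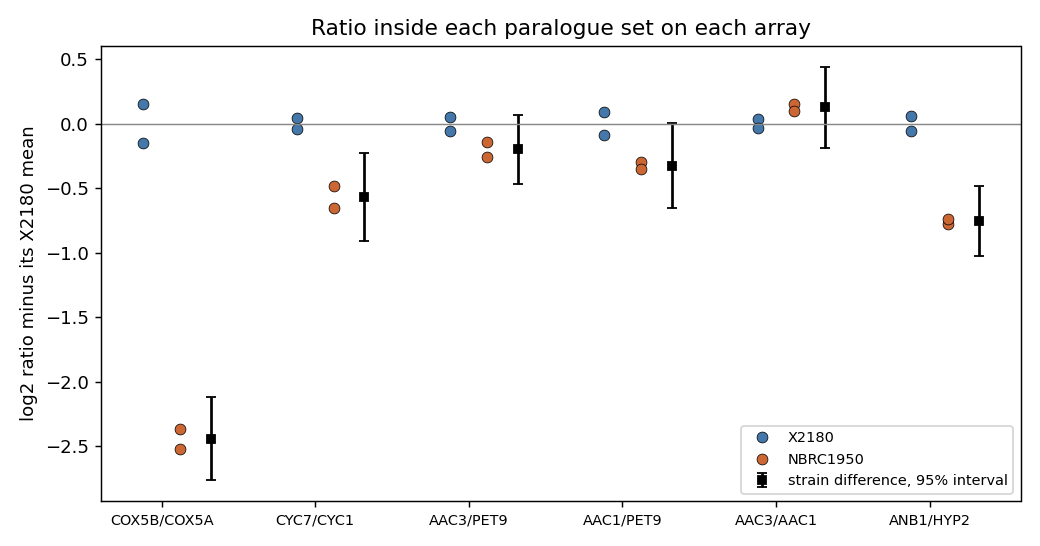
Log2 ratio of 2 paralogues on each array after subtracting the X2180 mean of that ratio; points are single arrays, and black squares with bars are the strain differences with 95% intervals. The differences are -2.44 for COX5B/COX5A, -0.76 for ANB1/HYP2 and -0.57 for CYC7/CYC1, while the intervals of the 3 carrier ratios reach 0.

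The regulators of the switch were measured in the same fit. Of 12 listed regulators, 5 were higher and 1 was lower, with a median of 0.23 against -0.05 for all genes. Of all tested genes 47.2% were called, 20.4% higher and 26.8% lower. HAP1, the heme-dependent activator, had signals of 800.2 and 786 in X2180 and of 383 and 380.2 in NBRC1950, a difference of -1.06 (limma adjusted p = 6.09e-05). ROX1, the repressor of hypoxic genes, had signals of 778 and 677 in X2180 and of 1551 and 1338 in NBRC1950, a difference of 0.99 (limma adjusted p = 0.000255). HAP1 was lower and ROX1 higher on both NBRC1950 arrays, and their part in the paralogue ratios was not tested. Given the insertion in HAP1 of the S288C lineage, whether its probe set responds alike in both strains was not tested either.

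HAP4, the limiting subunit of the Hap2-5 complex, was higher by 0.83 and CYC8, part of the Rox1 co-repressor, by 0.79. MGA2, an activator of OLE1 at low oxygen, was higher by 0.39 and TUP1, the partner of CYC8, by 0.24. The 6 that did not pass were HAP5 (0.25), UPC2 (0.22), IXR1 (0.19), HAP2 (0.17), MOT3 (0.16) and HAP3 (0.13). With scaling to all probe sets 11 regulators were called higher, as were 3968 of all genes, and HAP1 remained lower.

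Other hypoxic genes went both ways. Of 13 tested, 4 were higher and 5 lower, while 20.4% of all tested genes were higher and 26.8% lower. Their median was -0.25 (-0.05 for all genes), or 0.29 with scaling to all probe sets (0.50 for all genes). FET4, a low-affinity iron transporter, differed by -2.06 (limma adjusted p = 2.44e-06), SUR2, a sphingolipid hydroxylase, by -1.03 and HEM13, an oxygen-requiring enzyme of heme synthesis, by -0.83. TIR3, a cell wall mannoprotein made without oxygen, was higher by 1.27 (limma adjusted p = 1.32e-05). PDR11 (0.83), OLE1 (0.58) and HMG2 (0.40) were also called higher, and AUS1 (-0.98) and TIR2 (-0.97) lower. With the main scaling COX5B, AAC3 and ANB1 had the sign of the 5 lower genes, and CYC7 that of the 4 higher ones. With scaling to all probe sets AAC3 (0.03) and ANB1 (-0.03) were near 0, while FET4 (-1.51), SUR2 (-0.49) and HEM13 (-0.29) stayed lower.

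Other heme-activated genes of aerobic cells were mostly higher. Of 12 tested, 9 were higher and 0 lower, while 20.4% of all tested genes were higher and 26.8% lower. Their median was 0.54, against -0.05 for all genes. With scaling to all probe sets 12 were called higher with a median of 1.08, but so were 3968 of all genes, whose median was then 0.50. CYT1, cytochrome c1, differed by 1.92, RIP1, the Rieske protein, by 1.57, and QCR2, a core protein, by 0.85, all 3 of complex III. HMG1, an HMG-CoA reductase, was higher by 1.19. The limma adjusted p of these 4 genes ran from 1.97e-06 to 6.35e-05. NDI1 (0.18), YHB1 (-0.06) and CTT1 (0.06) did not pass.

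Genes whose products work with the members were also mostly higher. Of 14 tested, 9 were higher and 2 lower, while 20.4% of all tested genes were higher and 26.8% lower. Their median was 0.54, against -0.05 for all genes, and COX4 and COX6 stand in both this list and the one before. With scaling to all probe sets 13 were called higher, as were 3968 of all genes. CYC3, the lyase that attaches heme to cytochrome c, was higher by 0.83. Of the oxidase subunit genes, COX7 (0.69), COX8 (0.67), COX13 (0.61), COX12 (0.57), COX4 (0.51) and COX6 (0.36) were higher, beside 0.69 for COX5A. COX9, also an oxidase subunit gene, was lower. PIC2, a carrier of the inner mitochondrial membrane, was higher by 1.71, whereas MIR1, the main phosphate carrier, was at 0.09 and did not pass. The 2 lower genes were COX9 (-0.33) and DYS1 (-0.28), which makes the hypusine precursor on eIF5A, and with scaling to all probe sets they stood at 0.21 and 0.27. LIA1, the enzyme that completes hypusine, was at -0.08 and did not pass.

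Genes that glucose represses and that rise after the diauxic shift give a measure of culture state. Of 14 tested, 6 were higher and 0 lower in NBRC1950, with a median of 0.66. Of all tested genes 47.2% were called, 20.4% higher. With scaling to all probe sets 12 of the list were called higher, but so were 3968 of all genes, whose median was then 0.50. HSP26, a small heat shock protein, differed by 2.85, MLS1, a malate synthase, by 2.33, HXK1, a hexokinase, by 1.55 and ICL1, isocitrate lyase, by 1.13. The size for MLS1 is uncertain, since its X2180 mean of 25.2 lay near background and its NBRC1950 arrays read 75.6 and 207. The 8 that did not pass ran from ADH2 (-0.34), PCK1 (-0.10) and ACS1 (-0.04) to JEN1 (1.05), so the list did not move as one. The part of culture state in the members' differences was not tested. As a sign of RNA integrity, the control probe sets at the 3' end of SRB4 exceeded those at its 5' end by 2.05 and 2.18 (log2) in X2180 and by 2.66 and 2.83 in NBRC1950, and those of ACT1 by 0.20 and 0.26 in X2180 and by 0.33 and 0.31 in NBRC1950. Both were higher on both NBRC1950 arrays. The part of RNA integrity in the members' differences was likewise not tested.

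**Figure D4:**
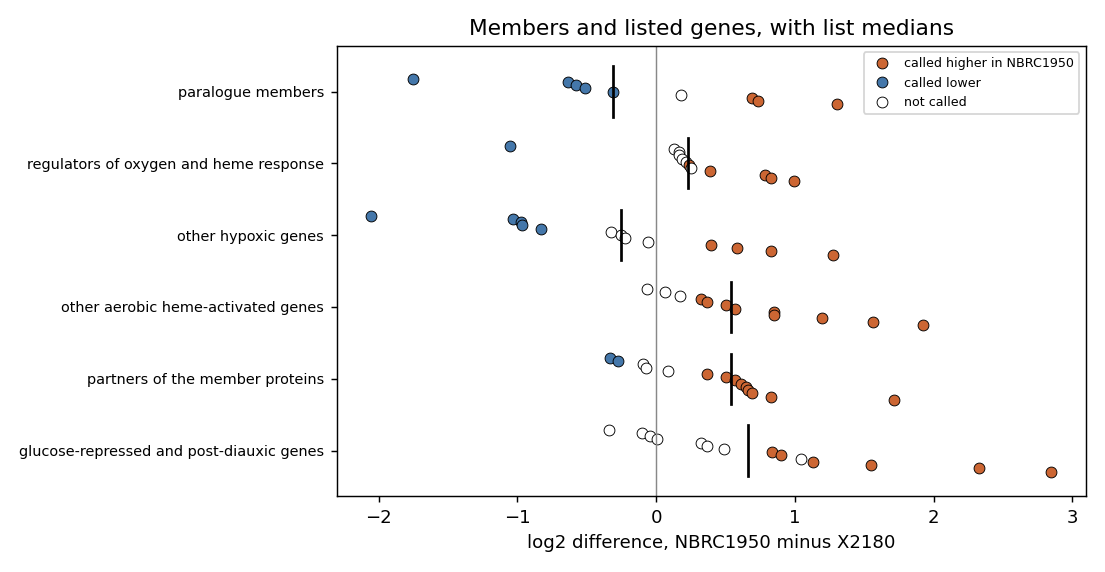
Log2 difference (NBRC1950 minus X2180) of the members and of 5 gene lists; points are genes, coloured where called in limma, and vertical bars are list medians. Listed aerobic genes lie mostly to the right with a median of 0.54, while hypoxic genes spread from -2.06 to 1.27.

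The genes whose values over the 4 arrays were most like those of CYC1, by root mean square distance of centred log2 signals, were TIR3 (0.017), SFK1 (0.019) and KIN3 (0.021). Those most like COX5B were SYS1 (0.052), CHA1 (0.063) and YJL132W (0.066). With 1 contrast of 2 strains, such likeness says little more than that the strain differences were of similar size, which were 1.27 to 1.32 around CYC1 and -1.81 to -1.63 around COX5B.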

How the data were processed

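The authors deposited 1 linear intensity per probe set and array, made with GCOS per the submitters' processing notes, with scaling by GCOS not stated. Per the design text, GeneSpring then set the median of every chip and the X2180 level of every gene to a common value, and neither step is visible in the deposited intensity values. Intensities were scaled per array to a median of 973.6 over 5498 S. cerevisiae probe sets, floored at 4.57 (the median of 5217 background probe sets) and converted to log2. Probe sets with a mean log2 above that of 16.4, the geometric mean over arrays of the 90th background percentile, were tested (5358 probe sets, 5316 genes), by limma 3.58.1 in R 4.3.3 with an intensity trend and no covariates. The fit had 2 residual and 5.42 prior degrees of freedom, and 2 arrays per strain limit the precision. The fit was tested on simulated data. For a gene with several probe sets the brightest stood, and each member had 1.

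Names were matched by gene identifier to the R64 table, from which no coordinates were taken. The members and the 5 gene lists were chosen with earlier results of these data known. Named genes are all members, all regulators, up to 4 genes of lowest adjusted p in the remaining lists, the 3 nearest to the most positive and the most negative called member, and other listed genes chosen after their values were seen. The labels do not pair same-numbered arrays, and the correlation of their deviations across probe sets was 0.06. Alternatives covered scaling, floor, filter, variance prior, a replicate block, each array left out and the methods' t-test.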

Additional observations from a re-analysis of the deposited data

How the results depend on the processing

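With the 4 arrays left out in turn, COX5B/COX5A ranged from -2.59 to -2.30, CYC7/CYC1 from -0.66 to -0.48 and ANB1/HYP2 from -0.82 to -0.70. AAC3/PET9 ranged from -0.26 to -0.14, AAC1/PET9 from -0.41 to -0.24 and AAC3/AAC1 from 0.09 to 0.16. Where this left 1 array in a strain, it was assumed to vary like the other strain's. Scaled to all probe sets, 5 members were called higher and 1 lower. PET9 was among the higher ones (0.23, limma adjusted p = 0.0465), while AAC3 at 0.034 was not called. Over all genes 3968 were then called higher and 321 lower, against 1083 and 1426 with the main scaling. With no further scaling 1 member was called lower (383 of all genes). AAC1 (-0.43, limma adjusted p = 0.138), AAC3 (-0.30, 0.287) and ANB1 (-0.37, 0.183) then lost their calls. The interval of CYC7/CYC1 (-0.57) ran from -1.18 to 0.04, where the errors of both genes hold the unscaled differences between arrays by construction. With quantile normalization 4 members were higher and 4 lower, against 1292 and 1194 of all genes, HYP2 being called and PET9 not. AAC3/PET9 (-0.30) and AAC1/PET9 (-0.42) then had intervals without 0, and the cause was not tested. The replicate block left 3 members higher and 5 lower, against 1159 and 1512 of all genes, and gave AAC1/PET9 (-0.32) an interval of -0.62 to -0.03. It changed no other ratio or member call. The call of PET9 was lost without an intensity trend (adjusted p = 0.0551), with quantile normalization (0.0817), with no further scaling (0.772) and when either X2180 array or NBRC1950 replicate 1 was left out. The methods' t-test at its unadjusted threshold called 3 members higher and 4 lower, with 885 genes higher and 1186 lower in all. After Benjamini-Hochberg it called 2 members higher and 1 lower, with 219 genes higher and 311 lower in all. COX5A, COX5B and CYC1 passed after that adjustment. Of the listed partners, 1 instead of 2 was lower when X2180 replicate 1 or either NBRC1950 array was left out. An aerobic list gene was lower without X2180 replicate 1 and a glucose-repressed one without NBRC1950 replicate 1, 1 each against 0, and 9 glucose-repressed genes were higher with quantile normalization against 6. No member had another probe set to compare.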
